A study of Mus musculus with 22 samples.

Results

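The acute phase protein genes Saa1, Saa2, Saa3, Orm1, Orm2, Hp, Lcn2, Apcs, Itih4 and Fgb were followed across the livers of 22 mice. They were chosen by name and taken as every probe set that the array's annotation gives to one of these symbols alone. This gave 11 probe sets for 10 of the 18194 genes measured, 2 of them for Saa1, and 0 probe sets that name a member together with another gene. Levels are the deposited signals on a linear scale, tests used log2(signal + 16), and all 10 genes were tested because no filter on low values was applied.

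The liver of each animal was hybridised to 1 Affymetrix array, and animals are called here by the number that ends their title at 5 weeks and by the last word of the title at 14 weeks. At 5 weeks of age the groups were 4 Trim24-/- Rara+/- mice (animals 54, 66, 73 and 82), 4 Trim24-/- mice (1, 6, 8 and 37) and 4 wild-type (WT) mice (2, 44, 45 and 90). At 14 weeks they were 5 Trim24-/- mice (liver_648M, liver_466M, liver_463M, liver_411M and liver_395M) and 5 WT mice (liver_616WT, liver_611WT, liver_613WT, liver_464WT and liver_393WT). Trim24 encodes a nuclear co-regulator that binds retinoic acid receptor alpha, the product of Rara. The Trim24 disruption was in the germline, not in the liver alone, and the Trim24-/- Rara+/- mice lacked 1 further allele, of Rara. All mice came from intercrosses on a mixed C57BL/6 and 129/Sv background, so animals can differ at other loci, and no group had Rara+/- with intact Trim24. Each array was a separate animal, so p-values measure the spread between animals.

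Acute phase proteins are plasma proteins made largely by hepatocytes, whose output changes when interleukin-1, interleukin-6 or tumour necrosis factor reaches the liver. These cytokines act through NF-kB, STAT3 and the C/EBP factors, which bind the promoters of such genes. In the mouse, serum amyloid A is a major acute phase protein and is low in healthy liver, whereas fibrinogen circulates at high levels at all times and rises less steeply.

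Age was not separated from other differences between the arrays. Xist, the RNA of the inactive X chromosome, read 13.4 to 44.5 on the arrays at 14 weeks, against 948 to 2169 on those at 5 weeks. The Y-linked gene Eif2s3y read 245 to 344 at 14 weeks and 0.350 to 6.59 at 5 weeks, and the labels used here give no sex. By Xist and Eif2s3y every 5-week array read as female and every 14-week array as male, so age and sex cannot be told apart. The median signal was 19.7 to 25.9 at 14 weeks and 12.6 to 16.1 at 5 weeks, at the same trimmed mean of 100.001. The probe set used for Trim24 gave 450 ± 34.1 in Trim24-/- Rara+/-, 363 ± 84.7 in Trim24-/- and 317 ± 111 in WT livers at 5 weeks (SD, n = 4 each). At 14 weeks it gave 235 ± 59.3 in Trim24-/- and 168 ± 24.2 in WT livers (SD, n = 5 each). The signal of this probe set was thus not lower in the mutants. The part of the gene that its probes read is not known here, so this signal does not check the labels. Rara read 18.2 ± 9.97 in Trim24-/- Rara+/-, 13.7 ± 8.45 in Trim24-/- and 12.3 ± 11.7 in WT livers at 5 weeks (SD, n = 4 each), near the pseudocount and not lower in the heterozygotes, so it does not check them either. Hepatocyte markers were all measured, and the summed signal of the 10 of them ran from 51691 to 84968 over the 22 livers.

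The promoters of the 5 members that are shown further on to vary together from animal to animal are given first, so that their letters can be read beside the values. Motifs of acute phase regulators were searched in all members with a promoter entry, and the counts over all of these follow the sequences. Each is the 250 bases before the transcription start in RefSeq's GRCm38.p6 table, written 5′ to 3′ on the gene's own strand. Capitals mark matches on either strand to TTNNGNAA (C/EBP), TTCNNNGAA (STAT3) or GGGNNNNNCC (NF-kB). The positions are chr7:46742981-46743230 (minus strand) for Saa1, chr7:46751583-46751832 (plus) for Saa2, chr7:46715677-46715926 (minus) for Saa3, chr4:63362199-63362448 (plus) for Orm2 and chr2:32387740-32387989 (minus) for Lcn2. RefSeq's spans of the Saa1 and Saa3 genes reach into or past these windows, so other starts are annotated upstream.
Saa1: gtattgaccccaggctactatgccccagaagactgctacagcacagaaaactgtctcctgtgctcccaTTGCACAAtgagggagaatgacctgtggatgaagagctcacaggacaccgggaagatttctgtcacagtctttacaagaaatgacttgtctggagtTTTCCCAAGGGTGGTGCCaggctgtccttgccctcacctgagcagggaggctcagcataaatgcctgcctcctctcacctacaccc
Saa2: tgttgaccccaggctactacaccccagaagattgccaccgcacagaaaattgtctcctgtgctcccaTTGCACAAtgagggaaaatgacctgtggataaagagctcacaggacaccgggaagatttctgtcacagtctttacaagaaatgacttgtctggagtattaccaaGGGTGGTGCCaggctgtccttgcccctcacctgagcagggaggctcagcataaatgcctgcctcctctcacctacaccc
Saa3: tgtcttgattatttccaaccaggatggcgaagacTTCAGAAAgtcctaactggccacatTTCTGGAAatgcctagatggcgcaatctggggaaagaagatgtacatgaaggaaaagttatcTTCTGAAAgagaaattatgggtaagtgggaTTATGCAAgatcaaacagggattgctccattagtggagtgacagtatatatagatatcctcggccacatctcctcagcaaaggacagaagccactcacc
Orm2: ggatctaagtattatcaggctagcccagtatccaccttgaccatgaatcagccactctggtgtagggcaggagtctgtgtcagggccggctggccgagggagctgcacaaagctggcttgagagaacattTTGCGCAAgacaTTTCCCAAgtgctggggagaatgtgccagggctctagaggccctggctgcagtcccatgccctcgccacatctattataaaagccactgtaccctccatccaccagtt
Lcn2: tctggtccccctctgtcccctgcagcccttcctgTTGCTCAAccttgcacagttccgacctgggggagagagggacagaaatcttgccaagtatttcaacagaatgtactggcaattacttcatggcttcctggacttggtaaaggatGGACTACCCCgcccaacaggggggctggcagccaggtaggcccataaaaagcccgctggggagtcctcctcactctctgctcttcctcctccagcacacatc

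The windows of Saa1 and Saa2, which lie next to each other on chromosome 7, were identical at 238 of 249 aligned bases (95.6%) with 1 gap base. Both held TTGCACAA and GGGTGGTGCC. In Saa1 the second C/EBP match, TTTCCCAA, ended directly before GGGTGGTGCC without overlapping it, and the window of Saa2 had no match there. Saa3 held 4 C/EBP matches, Orm2 held 2 and Lcn2 held 1 together with an NF-kB match. Among the 8 members with a promoter entry, 6 held a C/EBP match, against 36.8% of 32851 promoters of the same length. A STAT3 match was present in 3 of the 8 (Apcs, Itih4 and Fgb), against 7.02% of promoters, and an NF-kB match in 4 of the 8 (Saa1, Saa2, Lcn2 and Itih4), against 45.8%. Each of the 5 promoters shown held a C/EBP match and none held a STAT3 match, and Fgb was the other member with a C/EBP match. Whether these matches bear on the members' values was not tested. These matches describe letters in a window and not occupied sites. Hp and Orm1 are named only.

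The serum amyloid A genes encode small apolipoproteins of high-density lipoprotein. Saa1 (probe set 1450788_at) read 396, 412, 667 and 327 in the 5-week Trim24-/- Rara+/- livers, 649, 1370, 352 and 3751 in the Trim24-/- livers, and 335, 321, 577 and 708 in the WT livers, in the order of the animals given above. At 14 weeks it read 684, 990, 556, 379 and 4378 in Trim24-/- livers, against 537, 494, 858, 658 and 1510 in WT livers. One Trim24-/- animal at each age, animal 37 at 5 weeks and liver_395M at 14 weeks, stood above every other liver, while the rest of both groups overlapped with WT.

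Saa2 (1449326_x_at) was dimmer and had the same shape. Its signal was 97.3, 103, 190 and 81.4 in the 5-week Trim24-/- Rara+/- livers, 196, 475, 119 and 1729 in the Trim24-/- livers, and 99.9, 91.6, 177 and 161 in the WT livers. At 14 weeks it was 270, 342, 141, 131 and 1938 in Trim24-/- livers, and 140, 127, 242, 191 and 289 in WT livers. Animal 37 and liver_395M were again the highest, and all pairs of groups overlapped. At 5 weeks Trim24-/- animals 1, 6 and 37, at 196, 475 and 1729, were above every WT liver, and animal 8, at 119, was not. The second Saa1 probe set (1419075_s_at) read 3444 in animal 37 and 3640 in liver_395M, against 243 to 1076 in the other 20 livers. Its annotation accession is a Saa2 transcript in RefSeq. Since the suffixes of this probe set and of the Saa2 one mark probes that can match several transcripts, Saa1 and Saa2 are counted as 2 genes in what follows but may not be independent measurements.

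Saa3 (1450826_a_at), the serum amyloid A gene that mouse macrophages and fat also express, read 56.9, 82.02, 144 and 48.1 in 5-week Trim24-/- Rara+/- livers, 79.1, 188, 54.9 and 254 in Trim24-/- livers, and 113, 66.5, 79.8 and 124 in WT livers. At 14 weeks it read 131, 144, 114, 55.3 and 249 in Trim24-/- livers, against 132, 108, 110, 86.9 and 106 in WT livers. The 2 highest values were those of animal 37 and liver_395M. Saa4, the serum amyloid A gene that is expressed constitutively, is no member and was looked at after its values were seen. Its brighter probe set read 3118 in animal 37, inside the range of 1686 to 3706 over the 5-week livers, and 2852 in liver_395M, the highest of its group (others 2292 to 2802), where WT livers of that age read 2372 to 3356.

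Lcn2 encodes lipocalin 2, which binds bacterial siderophores. Its probe set (1427747_a_at) read 154, 186, 252 and 144 in 5-week Trim24-/- Rara+/- livers, 196, 426, 105 and 1067 in Trim24-/- livers, and 47.0, 105, 158 and 384 in WT livers. At 14 weeks it read 75.3, 140, 58.6, 50.9 and 752 in Trim24-/- livers and 31.1, 88.1, 81.5, 35.2 and 84.2 in WT livers. At 5 weeks WT animal 90 exceeded all 4 Trim24-/- Rara+/- livers and 2 of the 4 Trim24-/- livers, so the groups overlapped, and at 14 weeks liver_395M stood alone above the rest.

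Orosomucoids are alpha-1 acid glycoproteins that bind basic and neutral lipophilic drugs. Orm2 (1420438_at) read 179, 149, 341 and 166 in 5-week Trim24-/- Rara+/- livers, 201, 294, 120 and 523 in Trim24-/- livers, and 309, 492, 501 and 548 in WT livers. At 14 weeks it read 92.1, 105, 43.9, 39.2 and 188 in Trim24-/- livers and 56.9, 65.0, 109, 53.2 and 96.1 in WT livers. Orm2 was the only one of the 5 co-varying genes whose Trim24-/- animals other than 37 lay below all WT animals at 5 weeks. Orm1 (1451054_at) read between 3802 and 5457 in all 22 livers. Its group means were 4328 ± 285 in Trim24-/- Rara+/-, 4902 ± 430 in Trim24-/- and 4875 ± 754 in WT livers at 5 weeks (SD, n = 4 each), and 4325 ± 307 in Trim24-/- and 4389 ± 487 in WT livers at 14 weeks (SD, n = 5 each).

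**Figure D1:**
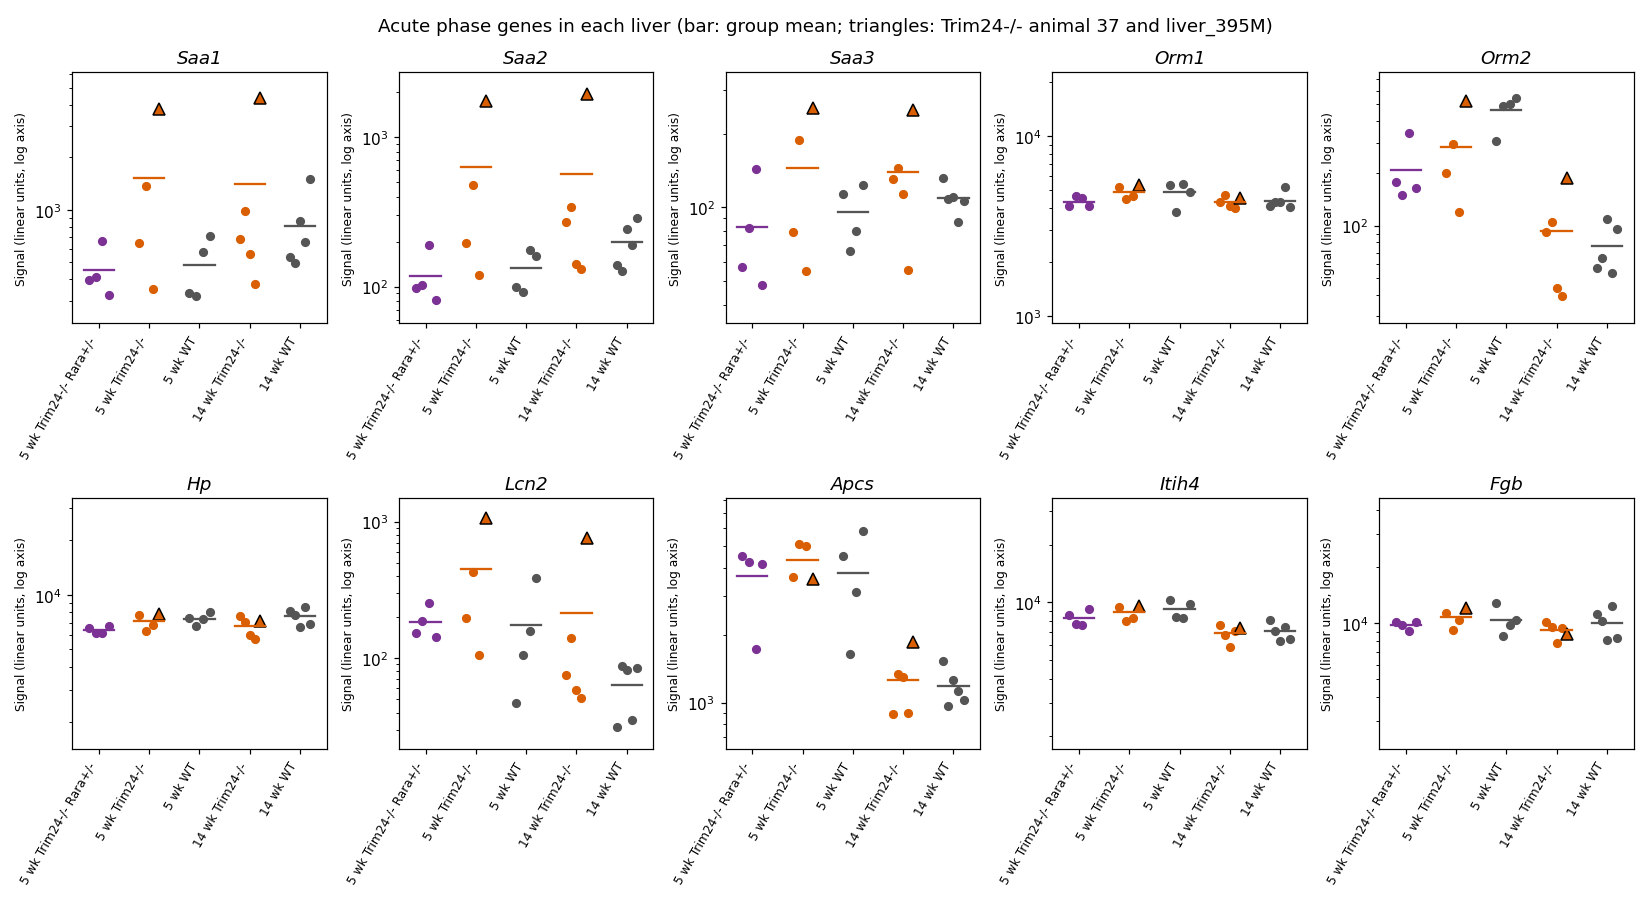
Signal of each of the 10 genes in each of the 22 livers, on a log axis in linear signal units, with a bar at the group mean. Triangles mark Trim24-/- animal 37 (5 weeks) and liver_395M (14 weeks), which read 3751 and 4378 for Saa1, above the other livers.

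Haptoglobin, encoded by Hp, binds free haemoglobin. Hp (1448881_at) averaged 6395 ± 293 in Trim24-/- Rara+/-, 7156 ± 729 in Trim24-/- and 7392 ± 566 in WT livers at 5 weeks (SD, n = 4 each), and 6724 ± 819 in Trim24-/- and 7596 ± 812 in WT livers at 14 weeks (SD, n = 5 each). Itih4 encodes an inter-alpha-trypsin inhibitor heavy chain that is cleaved by kallikrein. Itih4 (1431808_a_at) averaged 8295 ± 730, 8861 ± 810 and 9224 ± 999 in Trim24-/- Rara+/-, Trim24-/- and WT livers at 5 weeks (SD, n = 4 each), and 6925 ± 675 in Trim24-/- and 7077 ± 736 in WT livers at 14 weeks (SD, n = 5 each). Fgb encodes the beta chain of fibrinogen, the precursor of the clot. Fgb (1428079_at) averaged 9788 ± 503, 10740 ± 1259 and 10355 ± 1773 in the same groups at 5 weeks (SD, n = 4 each), and 9121 ± 899 in Trim24-/- and 10031 ± 1820 in WT livers at 14 weeks (SD, n = 5 each). Within a group the highest Hp, Itih4 or Fgb signal was at most 1.52 times the lowest, whereas for Saa2 it reached 14.6 times in 5-week and 14.8 times in 14-week Trim24-/- livers.

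Apcs encodes serum amyloid P, a pentraxin that serves as a main acute phase protein in the mouse. Apcs (1419059_at) read 4517, 4230, 1731 and 4160 in 5-week Trim24-/- Rara+/- livers, 3634, 5122, 5015 and 3576 in Trim24-/- livers, and 4512, 1649, 3132 and 5864 in WT livers. At 14 weeks it read 890, 1348, 1301, 896 and 1858 in Trim24-/- livers and 1529, 965, 1255, 1126 and 1026 in WT livers. The genotypes overlapped at each age. Animal 73 was the lowest of its group for Apcs although it was the highest of its group for Saa1, Saa2, Saa3, Orm2 and Lcn2.

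Loss of Trim24 was compared with WT at 5 weeks to ask whether acute phase genes differ in livers without the co-regulator. None of the 10 genes passed limma's test at an adjusted p under 0.05, against 0.599% of all genes. At an unadjusted p under 0.05 there were 2 of 10, Saa2 higher and Orm2 lower, against 10.8% of all genes. No gene separated the groups, against 5.52% of all genes. Saa2 averaged 630 ± 749 in Trim24-/- and 132 ± 42.8 in WT livers (SD, n = 4 each), a log2 difference of 1.46 ± 0.60 (SE, adjusted p = 0.400, limma). Saa1 differed by 1.16 ± 0.56 (adjusted p = 0.482) and Lcn2 by 1.13 ± 0.62 (adjusted p = 0.547). Their 95% intervals, -0.04 to 2.37 and -0.22 to 2.48, allow both no change and a rise of several fold. Without animal 37 the log2 differences were 0.75 for Saa2, 0.56 for Saa1, 0.57 for Lcn2 and 0.03 for Saa3, against 0.35 with it for Saa3.

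Orm2 ran the other way, at 285 ± 174 in Trim24-/- and 462 ± 105 in WT livers (SD, n = 4 each), a log2 difference of -0.82 ± 0.37 (adjusted p = 0.437, limma). Without animal 37 the difference was -1.16 ± 0.31 (adjusted p = 0.172). The changes of Orm1, Hp, Itih4 and Fgb lay between -0.06 and 0.06 on the log2 scale, and Apcs was at 0.32 ± 0.37. In bulk liver, fewer cells of a type and less RNA per cell cannot be told apart. With WT animal 90 and Trim24-/- animal 6 both left out, Saa2 differed by 1.46 (adjusted p = 0.465) and Lcn2 by 1.46 (adjusted p = 0.392).

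Loss of 1 Rara allele together with Trim24 was set against WT at 5 weeks. Again 0 of 10 genes were called, against 0.055% of all genes, 1 of 10 had an unadjusted p under 0.05, against 7.44%, and 0 separated the groups, against 4.62%. That gene was Orm2, at 209 ± 88.9 in Trim24-/- Rara+/- and 462 ± 105 in WT livers (SD, n = 4 each), a log2 difference of -1.13 ± 0.37 (adjusted p = 0.458, limma). Its 95% interval was -1.92 to -0.34. Animal 73, at 341, was the only Trim24-/- Rara+/- liver above the lowest WT liver, at 309. Saa1, Saa2 and Saa3 had differences of -0.07 ± 0.56, -0.16 ± 0.60 and -0.24 ± 0.40, and Lcn2 one of 0.37 ± 0.62. Single animals set the sign of 2 of these. Lcn2 was at -0.05 without WT animal 2 and at 0.84 without WT animal 90, and Saa1 ran from -0.27 without Trim24-/- Rara+/- animal 73 to 0.13 without WT animal 90.

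Between the 2 mutant genotypes at 5 weeks, which asks what the Rara allele adds in livers without Trim24, all 10 estimates were below 0. Over all genes 9590 of 18194 were. The 10 signs are not independent, since some members varied together. Animal 37, in the Trim24-/- group, was also the highest of that group for 9 of the 10. The median of the 10 estimates was -0.31, against -0.01 over all genes. None was called, against 0.143% of all genes, and none separated the groups, against 8.46%. Saa1 and Saa2 had an unadjusted p under 0.05, against 11.5% of all genes. Saa2 averaged 118 ± 48.7 in Trim24-/- Rara+/- and 630 ± 749 in Trim24-/- livers (SD, n = 4 each), a log2 difference of -1.63 ± 0.60 (adjusted p = 0.306, limma), and Saa1 differed by -1.24 ± 0.56 (adjusted p = 0.419). Without animal 37 these differences were -0.91 ± 0.40 for Saa2 and -0.63 ± 0.41 for Saa1, and Lcn2 moved to -0.20, against -0.76 with that animal. Orm2 was at -0.31 with animal 37 and at 0.03 without it. The 3 comparisons at 5 weeks share arrays, so their estimates are not independent of each other.

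At 14 weeks Trim24-/- livers were again set against WT. No member was called, against 0.242% of all genes, 0 of 10 had an unadjusted p under 0.05, against 8.23%, and 0 separated the groups, against 1.78%. Lcn2 averaged 215 ± 302 in Trim24-/- and 64.03 ± 28.3 in WT livers (SD, n = 5 each), a log2 difference of 0.90 ± 0.58 (adjusted p = 0.744, limma). Saa2 differed by 0.73 ± 0.58 (adjusted p = 0.805) and Saa1 by 0.29 ± 0.55. Without liver_395M the difference of Lcn2 was 0.28 ± 0.31, that of Saa2 0.10 ± 0.31 and that of Saa1 -0.27 ± 0.34, so that 1 liver set the sign for Saa1. Saa3 (0.20 with liver_395M and -0.03 without it), Orm2 (0.12 with it and -0.14 without it) and Apcs (0.06 with it and -0.10 without it) also changed sign.

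The difference of the Trim24-/- effect between 14 and 5 weeks was tested as an interaction over all 22 arrays. The 2 ages also differed in sex, as read from Xist and Eif2s3y, and in median signal, so it cannot be assigned to age alone. No member was called, against 0.033% of all genes, and 0 of 10 had an unadjusted p under 0.05, against 6.39%. The nearest was Orm2, whose effect was higher at 14 weeks by 0.95 ± 0.52 on the log2 scale (adjusted p = 0.817, limma). For Saa2 the difference of effects was -0.73 ± 0.90, with a 95% interval of -2.60 to 1.14. It was -0.01 without animal 37 and -1.36 without liver_395M, and for Orm2 the values were 1.29 and 0.68.

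**Figure D2:**
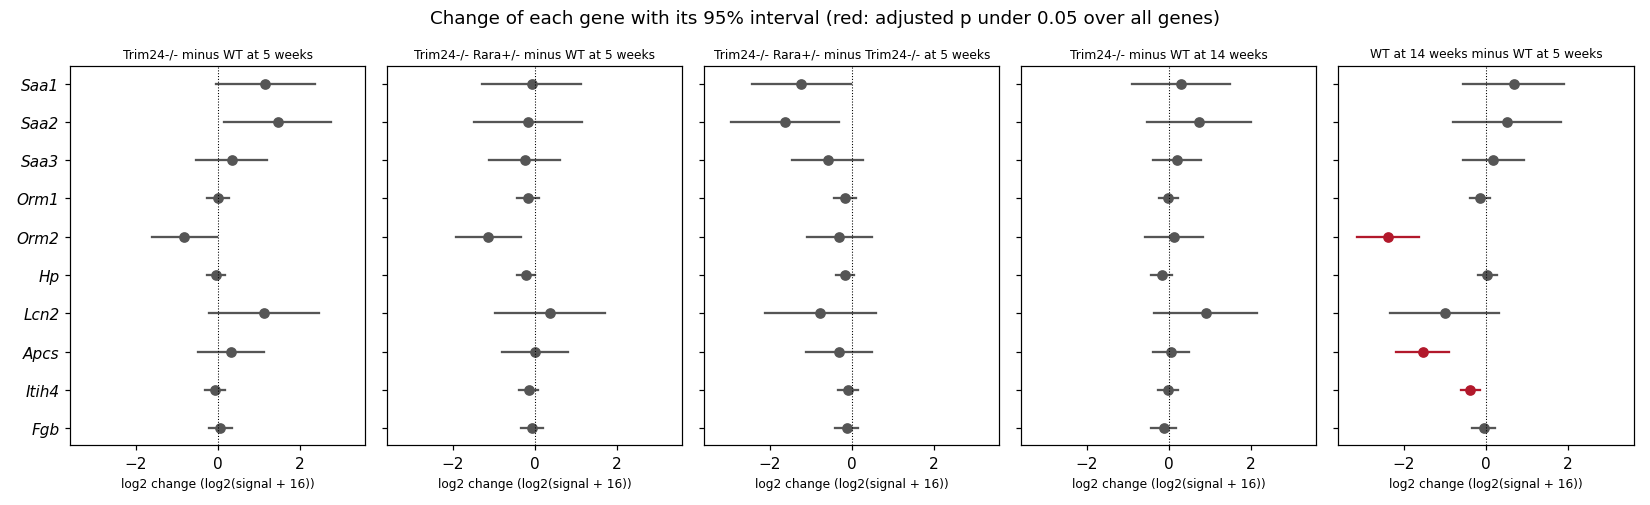
Log2 change of each gene, first-named group minus second, with its 95% interval, in 5 comparisons. Red marks an adjusted p under 0.05 over all genes and appears for Orm2, Apcs and Itih4 between WT ages, while intervals for Saa1, Saa2 and Lcn2 between genotypes span more than 2 log2 units.

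Levels in WT livers at 14 weeks were set against WT livers at 5 weeks. Sex, as read from Xist and Eif2s3y, and the median signal differed between the same arrays, so age cannot be told apart from these. Orm2, Apcs and Itih4 were lower at 14 weeks, and no member was higher. That is 3 of 10 called, against 28.3% of all genes in either direction and 8.63% lower, and 3 of 10 at an unadjusted p under 0.05, against 39.8%. The same 3 genes had groups that did not overlap, against 19.1% of all genes in either direction and 5.97% lower.

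Orm2 read 53.2 to 109 at 14 weeks and 309 to 548 at 5 weeks in WT livers, with means of 76.1 ± 25.1 (SD, n = 5) and 462 ± 105 (SD, n = 4). The log2 difference was -2.39 ± 0.37 (adjusted p = 9.86e-05, limma), which is 5.23-fold lower. Apcs read 965 to 1529 at 14 weeks and 1649 to 5864 at 5 weeks, a log2 difference of -1.54 ± 0.31 (adjusted p = 0.00112) or 2.91-fold lower. Itih4 read 6264 to 8062 at 14 weeks and 8328 to 10355 at 5 weeks, a log2 difference of -0.38 ± 0.11 (adjusted p = 0.0123). The median gene was higher by 0.13 at 14 weeks, and relative to it the differences were -2.52 for Orm2, -1.67 for Apcs and -0.51 for Itih4. After quantile normalisation they were -2.44, -1.39 and -0.13, Itih4 was no longer called (adjusted p = 0.372), and Fgb, at -0.05 before, was called higher by 0.25 (adjusted p = 0.0371). Without 5-week WT animal 2 the difference of Itih4 was -0.32 (adjusted p = 0.0504).

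In Trim24-/- livers Apcs read 890 to 1858 at 14 weeks and 3576 to 5122 at 5 weeks, without overlap, whereas Orm2 overlapped, at 39.2 to 188 and 120 to 523. These Trim24-/- ages were not tested against each other. In order of the mean, Orm2 was highest in 5-week WT, then in 5-week Trim24-/-, 5-week Trim24-/- Rara+/-, 14-week Trim24-/- and 14-week WT livers, and each neighbour in that order overlapped with the next. Saa1 and Saa2 were highest in the Trim24-/- groups of both ages and lowest in 5-week Trim24-/- Rara+/- livers, with neighbours that overlapped throughout. These means include animal 37 and liver_395M, and without liver_395M Saa1 at 14 weeks was lower in Trim24-/- than in WT livers, by a log2 difference of -0.27.

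Animal 37 and liver_395M were the highest Trim24-/- livers of their age for several members. They were noticed after the values were seen and are described without a test. Over the 10 genes, the median log2 difference from the other livers of the group was 0.76 in animal 37, 0.51 in animal 6, -0.49 in animal 1 and -0.69 in animal 8. At 14 weeks it was 0.86 in liver_395M, 0.27 in liver_466M, 0.08 in liver_648M, -0.29 in liver_463M and -0.69 in liver_411M, so other livers also carried spread. Animal 37 had the highest signal of its group for 9 of the 10 genes, the exception being Apcs, where 28.3% of all genes were highest in that liver. At 14 weeks liver_395M was the highest for 6 of 10, namely Saa1, Saa2, Saa3, Orm2, Lcn2 and Apcs, against 27.4% of all genes. Measured against the median of the other livers of the group, Saa2 was higher by 3.04 log2 units in animal 37 and by 3.20 in liver_395M. Saa1 was higher by 2.50 and 2.80, Lcn2 by 2.35 and 3.22, Saa3 by 1.51 and 0.94, and Orm2 by 1.32 and 1.34, in animal 37 and liver_395M in that order. The differences for Orm1, Hp, Itih4 and Fgb were at most 0.21 in either animal. Over the 10 hepatocyte markers the median difference was 0.20 in animal 37 and -0.29 in liver_395M. Among all 18194 genes ranked by this difference, Saa2 came 2nd in animal 37 and 4th in liver_395M, Saa1 8th and 7th, and Lcn2 12th and 3rd.

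The top 50 of both animals shared 5 genes, of which Saa2, Saa1 and Lcn2 are members. The others were Mt2, a metallothionein that binds zinc, higher by 2.14 in animal 37 and by 4.32 in liver_395M, and Cd14, the lipopolysaccharide co-receptor, higher by 1.66 and 1.42. Livers of other groups were also highest for several members at once, at smaller size. Animal 73 was the highest Trim24-/- Rara+/- liver for Saa1, Saa2, Saa3, Orm2 and Lcn2, and WT animal 90 was the highest 5-week WT liver for 6 genes, among them Saa1, Saa3, Orm2 and Lcn2.

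**Figure D3:**
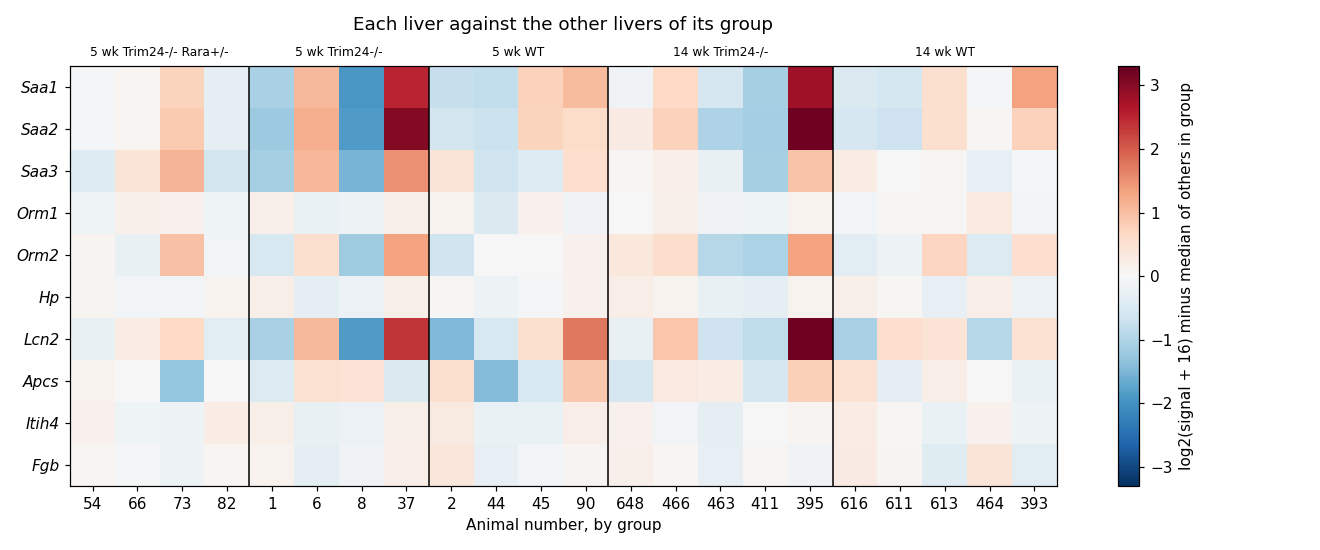
Each liver's log2(signal + 16) minus the median of the other livers of its group, for each gene (rows) and animal (columns, by group), with red higher and blue lower. Animal 37 and liver_395M are deep red for Saa1, Saa2 and Lcn2, at 2.35 to 3.22, and pale for Orm1, Hp, Itih4 and Fgb.

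Markers of other cells were read in the same 2 livers. Of 12 Kupffer cell and macrophage markers, 9 were above all other livers of the group in animal 37 and 12 in liver_395M, against 28.3% and 27.4% of all genes. Their summed signal was 12018 in animal 37, against 6084 to 9355 in the other 3, and 8671 in liver_395M, against 4636 to 6102 in the other 4. None of the 12 was near 0. Vsig4, a complement receptor of Kupffer cells, read 1350 in animal 37 and 729 in liver_395M, against group ranges of 347 to 1207 and 412 to 581.

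Over all 18194 genes, 5142 were above and 4705 below all others of the group in animal 37, and 4992 and 3470 in liver_395M. Of 10 neutrophil markers measured, 2 were above and 3 below all others of the group in animal 37. In liver_395M 6 were above and 0 below. Their summed signals were 212 (others 99.3 to 454) and 570 (others 149 to 236), in that order. S100a8 and S100a9, which encode calprotectin and are also made by other myeloid cells, read 127 and 186 in liver_395M, against 6.56 to 15.8 and 6.75 to 18.7 in the other 4, and Mmp8, Ngp and Ltf were also above the others there, at 46.3 (others 6.87 to 21.4), 51.9 (others 21.9 to 47.5) and 32.6 (others 3.32 to 29.9). Camp and Cxcr2 lay below the pseudocount in all livers of that group, Camp at 3.11 in liver_395M and at most 2.86 in the others. Hepatocyte markers were above the others for 7 of 10 and below them for 0 of 10 in animal 37. In liver_395M they were above for 0 of 10 and below for 4 of 10, with a summed signal of 51691, against 53926 to 68911 in the others. The part of these cell markers in the high Saa1, Saa2 and Lcn2 signals of these livers was not tested.

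The interferon-stimulated genes went different ways in the 2 animals. In animal 37 none of the 14 measured was above the other Trim24-/- livers and 7 were below all of them, with Ifit1 at 201 against 408 to 2317. In liver_395M, 11 of 14 were above all others, with Igtp at 662 against 283 to 512. Among all 18194 genes, 28.3% were above and 4705 genes below all others in animal 37, and 27.4% were above and 3470 genes below in liver_395M. Of 19 signalling genes measured, 6 were above and 5 below all others in animal 37, and 8 were above and 2 below in liver_395M. Socs3, the feedback inhibitor of interleukin-6 signalling, read 121 in animal 37 (others 85.0 to 156) and 208 in liver_395M (others 64.05 to 106). Stat3 read 643 in animal 37 (others 550 to 924) and 933 in liver_395M (others 397 to 536). Cebpd, a C/EBP factor, read 141 in animal 37 (others 79.3 to 131) and 109 in liver_395M (others 121 to 207). Il6 and Tnf themselves read at most 14.0 in both groups and lay below the pseudocount.

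**Figure D4:**
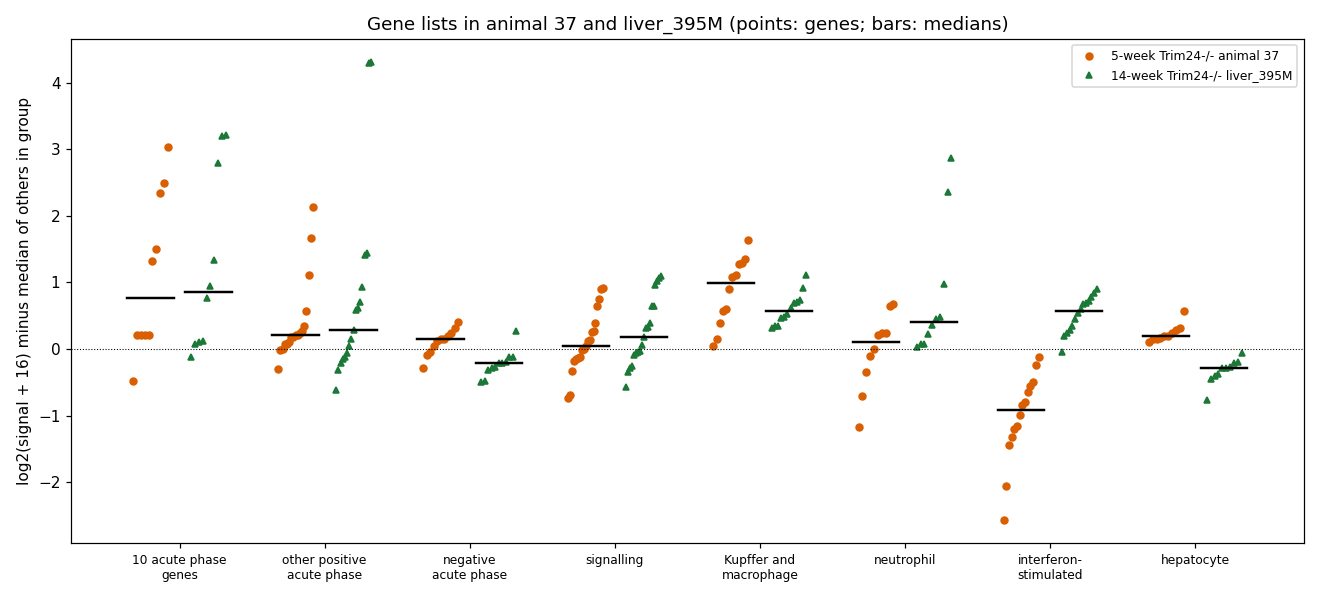
Log2(signal + 16) of every measured gene of 8 lists in animal 37 (circles) and liver_395M (triangles) minus the median of the other livers of the group, with bars at list medians. Kupffer cell and macrophage markers have medians of 0.99 and 0.57, and interferon-stimulated genes -0.92 and 0.57.

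The members were then compared with each other after the group mean was subtracted from each array, which leaves animal-to-animal variation within groups. These correlations over 22 arrays are descriptions, since the arrays share their normalisation and members were hybridised together. Saa1, Saa2, Saa3, Orm2 and Lcn2 were not set as a group in advance, so their range describes the grouping and does not test it. For the 10 pairs among these 5 genes, Pearson's r ran from 0.739 to 0.980 (Spearman's rho 0.627 to 0.973). The 0.980 was that of Saa1 with Saa2, which may not be independent measurements. Within the 5 genes r depended on the arrays used. Without animal 37 and liver_395M it ran from 0.545 to 0.949 over 20 arrays, and after quantile normalisation from 0.747 to 0.980. Between these 5 genes and Orm1, Hp, Itih4 and Fgb, r ran from -0.235 to 0.341 over 20 pairs, and Apcs had r of -0.116 to 0.267 with the other 9 genes. After quantile normalisation these ranges were -0.065 to 0.688 and -0.069 to 0.569, so how far the 5 genes stood apart from the others depended on the scaling.

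Hp, Itih4 and Fgb had r of 0.737 to 0.837 among them as deposited. After quantile normalisation their r ran from 0.280 to 0.663, and Hp then correlated with Fgb at 0.280 and with Itih4 at 0.663, but with Saa1 at 0.684 and with Lcn2 at 0.688, so the 3 genes were not a separate set under both scalings. Their deviations also followed the mean of the 175 genes brighter than 12 on the log2 scale, with r of 0.619 for Hp, 0.664 for Itih4 and 0.849 for Fgb, whereas Saa1, Saa2, Saa3, Orm2 and Lcn2 had r of -0.407 to -0.253 with that mean. The part of array brightness in the correlations of Hp, Itih4 and Fgb was not tested further.

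**Figure D5:**
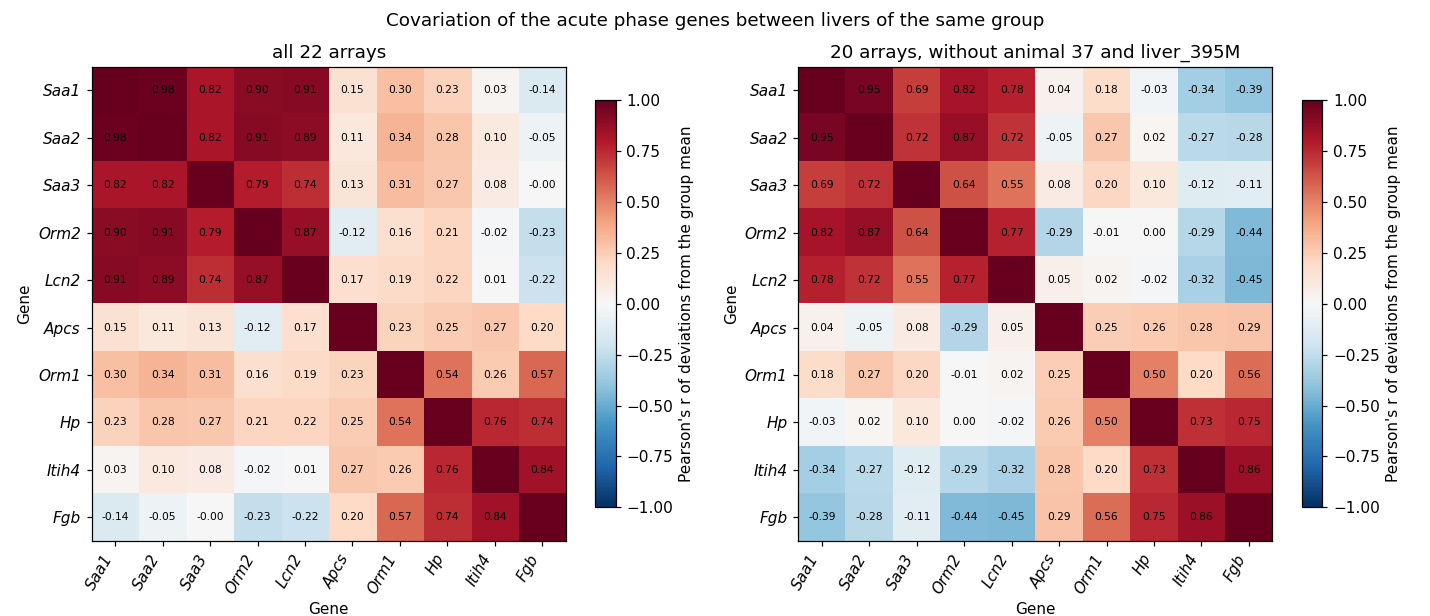
Pearson's r between the members' deviations from their group means, over all 22 arrays (left) and over the 20 arrays without animal 37 and liver_395M (right). Saa1, Saa2, Saa3, Orm2 and Lcn2, not set as a group in advance, have r of 0.739 to 0.980 among them on the left. Hp, Itih4 and Fgb reach 0.737 to 0.837 on the signals as deposited, against 0.280 to 0.663 after quantile normalisation (not plotted).

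Genes most like the members were sought among 8334 genes brighter than 6 on the log2 scale, by Pearson's r of within-group deviations over 22 arrays. With the mean of the 10 members the closest were Ly86 (r = 0.797), which encodes a partner of a Toll-like receptor homologue on B cells and macrophages, Lst1 (0.792), Ctss (0.778), the lysosomal protease cathepsin S, Itih3 (0.749) and Tmsb4x (0.740). Without animal 37 and liver_395M these r values were 0.667, 0.756, 0.640, 0.765 and 0.566. Saa1 and Saa2 were most like Fabp4 (0.875 and 0.893), a fatty acid binding protein of fat, endothelium and macrophages, and Saa3 like the leukocyte tetraspanin Cd53 (0.898). Lcn2 was most like the chemokine Ccl6 (0.864), and Orm2 like Zfp410 (0.862). Fgb was most like Fgg (0.948), the gamma chain of the same fibrinogen molecule, Hp like complement factor I, Cfi (0.805), and Itih4 like Kng1 (0.841), kininogen. Orm1 was closest to Atg16l2 (0.811) and Apcs to Ppp4r1 (0.782). Each match was picked as the highest r among the genes compared, so its size owes in part to that choice. With animal 37 and liver_395M left out, r with Fabp4 was 0.673 for Saa1 and 0.698 for Saa2. For the other single-member matches it then ran from 0.756 (Apcs) to 0.944 (Fgb).

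Other positive acute phase genes were measured for 17 of 20 listed. None was called in any genotype comparison or in the interaction, and their medians were 0.04 for Trim24-/- against WT at 5 weeks, -0.02 for Trim24-/- Rara+/- against WT, -0.0047 for Trim24-/- Rara+/- against Trim24-/- and -0.09 at 14 weeks, beside all-gene medians of -0.01, -0.02, -0.01 and 0.0012. Between WT ages 8.63% of all genes were called lower at 14 weeks and 3576 of 18194 higher. Of the 17 genes, 5 were lower and 0 higher. Among them were Crp, the pentraxin C-reactive protein (-0.66 ± 0.10, adjusted p = 5.34e-05, limma), Cp, the copper carrier ceruloplasmin (-0.44 ± 0.11, adjusted p = 0.00590), Fgl1 (-0.92 ± 0.24, adjusted p = 0.00737) and Serpina3n, a serine protease inhibitor (-0.47 ± 0.15, adjusted p = 0.0196).

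Of 11 negative acute phase genes measured of 12 listed, such as Ttr and Apoa1, none was called between genotypes. Between WT ages 2 of the 11 were called lower at 14 weeks, against 8.63% of all genes. They were Serpina6, the corticosteroid carrier (-1.28 ± 0.29, adjusted p = 0.00245, limma), and Fetub (-0.31 ± 0.11, adjusted p = 0.0324). Of 19 signalling genes measured of 20, 1 was called between genotypes, in Trim24-/- Rara+/- against Trim24-/- livers, where 0.143% of all genes were called. Il1r1, the interleukin-1 receptor, read 208 to 256 in Trim24-/- Rara+/- and 74.1 to 157 in Trim24-/- livers at 5 weeks, a log2 rise of 1.15 ± 0.19 (adjusted p = 0.0461, limma). In WT livers of that age it read 129 to 192.

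Of 14 interferon-stimulated genes measured of 16, 9 were called higher in Trim24-/- than in WT livers at 5 weeks. Of all genes 0.599% were called there in either direction. In Trim24-/- Rara+/- against Trim24-/- livers 5 of the 14 were called lower, against 0.143% of all genes called. At 14 weeks 1, Usp18, was called higher in Trim24-/- than in WT livers, against 0.242% of all genes called. Gbp6, a guanylate-binding protein, was higher by 2.31 ± 0.27 in Trim24-/- than in WT livers at 5 weeks (adjusted p = 0.00308, limma). Of the 12 Kupffer cell and macrophage markers, 1 was called higher in Trim24-/- than in WT livers at 5 weeks, beside the same 0.599% of all genes. It was Mpeg1 (1.69 ± 0.30, adjusted p = 0.0275, limma). No neutrophil or hepatocyte marker was called between genotypes. The part of these genes in the members' values was not tested.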

How the data were processed

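RNA of 22 mouse livers was measured on Affymetrix arrays, 1 per animal, after 2 rounds of amplification per the labels' protocols. The authors deposited linear intensity signals for 45101 probe sets, already scaled to a common level. Neither the software nor its settings are given in the sources used here. Gene symbols came from a platform annotation in which 34958 probe sets have 1 symbol, and the brightest probe set stood for each of 18194 genes. Coordinates and promoters are RefSeq's, of GRCm38.p6, and the annotation's own build was not known.

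Groups came from the sample titles. The test was limma's lmFit with eBayes (limma 3.58.1, run under R 4.3.3; tables were read by data.table, release 1.17.8) on log2(signal + 16). A gene counted as called when its p, adjusted by Benjamini and Hochberg's method across the 18194 genes, was under 0.05. One fit of 12 arrays gave the 3 comparisons at 5 weeks, another of 10 arrays the one at 14 weeks, and a fit of all 22 the interaction and the WT ages. Python 3.11.15 with pandas 2.3.3 gave the descriptions. Precision is limited by how many arrays each group has. The fits were tested on simulated data.

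The members and the 7 other lists (other positive and negative acute phase genes, signalling, neutrophil, Kupffer cell and macrophage, hepatocyte and interferon-stimulated genes) were chosen with earlier results of these data known. Named were all members and their probe sets, per list up to 4 called genes of smallest adjusted p or else the brightest, and the 5 genes most like the members' mean with 1 per member. Others named for their values in animal 37 and liver_395M, among them Il6, Tnf, Socs3, Stat3, Mt2 and Cd14, and Saa4, were chosen after their values were seen.

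Alternatives were quantile normalisation, centring, pseudocounts of 1 and 64, only brighter genes, every probe set or the mean of a gene's probe sets, a variance trend, array weights, other sets of arrays, averaged arrays and each array left out. Correlations without animal 37 and liver_395M or after quantile normalisation were added after the values were seen. No 2 arrays were identical.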

Additional observations from a re-analysis of the deposited data

Results flagged for a closer look

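Each gene was checked in each group of 4 or 5 livers for an animal whose gap to the nearest other, divided by the group's range, exceeded Dixon's 95% critical value. Of 55 groups of values, 2 had such an animal on the log2 scale and 7 on the signal scale, and chance gives about 1 in 20. On the signal scale liver_395M stood apart among 14-week Trim24-/- livers for both Saa1 probe sets (ratios of 0.8477 for 1419075_s_at and 0.8471 for 1450788_at), for Saa2 (0.8828) and for Lcn2 (0.8729), 4 values that share 1 liver, and not on the log2 scale. For Orm1 the WT liver_464WT at 14 weeks, the highest of its group, stood apart at 0.7697 on the log2 scale and 0.7918 on the signal scale. Animal 73 of the Trim24-/- Rara+/- group was the highest for Orm2 (0.8467, signal scale) and the lowest for Apcs (0.914 on the log2 scale and 0.872 on the signal scale). Animal 37 did not stand apart by this rule for any gene, with animal 6 second to it for Saa1, Saa2, Saa3, Orm2 and Lcn2.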

How the results depend on the processing

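The count of members called between genotypes was 0 under each of 26 alternatives for the 3 comparisons at 5 weeks, 20 at 14 weeks and 34 for the interaction, leave-one-out fits included (range 0 to 0). Over the same alternatives all genes called ran from 12 to 149 for Trim24-/- against WT at 5 weeks, 5 to 31 for Trim24-/- Rara+/- against WT, 0 to 325 for Trim24-/- Rara+/- against Trim24-/-, 28 to 94 at 14 weeks and 5 to 11 for the interaction, and 3045 to 10517 for WT ages. For WT ages 3 members were called, 2 to 5 over 35 alternatives and 2 to 3 when each animal was left out. The 5 came from centring arrays on their median, which added Orm1 (-0.47, adjusted p = 0.00607) and Fgb (-0.38, adjusted p = 0.0447) and moved the median of all genes to -0.20. Fgb was reversed by quantile normalisation, at 0.25 (adjusted p = 0.0371). Itih4 was not called after quantile normalisation (-0.13), with only the WT arrays in the fit (adjusted p = 0.0550) or without 5-week WT animal 2 (-0.32, adjusted p = 0.0504). The other 1664 values of single members kept their side of the threshold. Why the values moved was not tested beyond this. No paired analysis was possible because the animal numbers of the groups differ, so none is shared. Signals of Saa3, Orm2 and Lcn2 as low as 31.1 lie near the pseudocount, which understates their fold changes.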
